A study of Mus musculus with 6 samples.

Results

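The cyclin-dependent kinase inhibitors are the 7 genes Cdkn1a, Cdkn1b and Cdkn1c of the CIP/KIP family and Cdkn2a, Cdkn2b, Cdkn2c and Cdkn2d of the INK4 family. They were found as every probe set of the arrays that GEO's platform annotation pairs with these symbols and with no other gene. This gave 9 probe sets for the 7 genes, out of 36899 probe sets and 15964 named genes in all. The family was chosen by the signals of Cdkn1a and Cdkn2b on these same arrays, which were already known to differ strongly, so the members' signals are given as a description and support nothing.

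Cyclin-dependent kinases (CDKs), switched on by cyclins, drive a cell from G1 into S phase and on to mitosis. INK4 proteins bind CDK4 and CDK6 and keep D-type cyclins from activating them, which leaves the retinoblastoma protein able to hold back E2F transcription factors. CIP/KIP proteins bind whole cyclin and CDK complexes, above all those of CDK2, and also help cyclin D complexes to assemble. In T cells these inhibitors are known for setting how readily a cell divides after antigen or cytokine, and Cdkn1a and the Cdkn2a locus are also known for their part in DNA damage responses and senescence.

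RNA was measured in cultured CD8+ T cells of female P14 mice on the C57Bl/6 background, whose age the sources used here do not give. All cells carried the P14 transgene, a T cell receptor for a viral peptide, and all came from whole spleen and lymph node suspensions that were given that peptide for 2 days. For the following 7 days they grew in IL-15 (central memory cells, CM) or in IL-2 (effector/effector memory cells, E/EM), and each kind was then sorted for a high (CM) or a low (E/EM) level of a surface marker. Both kinds are culture models, and the labels do not say how many mice gave cells or whether 1 RNA was used for all arrays of a kind. Each kind was hybridised to 1 array of each of 3 types, SubA, SubB and SubC. There were no replicates, so no difference could be set against the spread between cultures, no p-value was computed, and every value describes these arrays alone.

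All 9 inhibitor probe sets lay on SubA, with 0 on SubB and 0 on SubC, so each value below comes from 1 CM and 1 E/EM array. Signals are deposited intensities, which are comparable between the arrays of a type for the same probe set and not between probe sets. A signal was counted as measured above a floor of 31.28, the higher of both SubA arrays' 90th percentiles over 15 bacterial control probe sets. The trimmed mean signal was 500.323 on the CM and 500.314 on the E/EM array, and 9 spiked-in hybridisation controls had log2 ratios from -0.16 to 0.10. The labelled cell type was borne out by its markers, with Cd8a at 5882.7 in CM and 5133.8 in E/EM and Cd8b1 at 12298.3 and 8709.3.

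Of the 7 genes, Cdkn1a, Cdkn2a and Cdkn2b had a signal at least 2-fold lower in CM than in E/EM cells, and 0 were at least 2-fold higher. Cdkn2c, Cdkn2d and Cdkn1b lay between 1.09-fold and 1.51-fold higher in CM, and Cdkn1c lay under the floor in both kinds. Counted by probe set, 6 were above the floor on both arrays, 2 on 1 array and 1 on neither. Among 10946 genes with a ratio over all array types, 5.61% were at least 2-fold lower in CM and 2.73% at least 2-fold higher. Over SubA alone those shares were 4.35% and 2.09% of 5885 genes, and with genes bounded by the floor added, 5.32% and 2.37% of 6537. Because the choice of the family used this contrast, nothing is read from its count. In bulk RNA, fewer cells with a transcript and less of it per cell cannot be told apart.

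**Figure D1:**
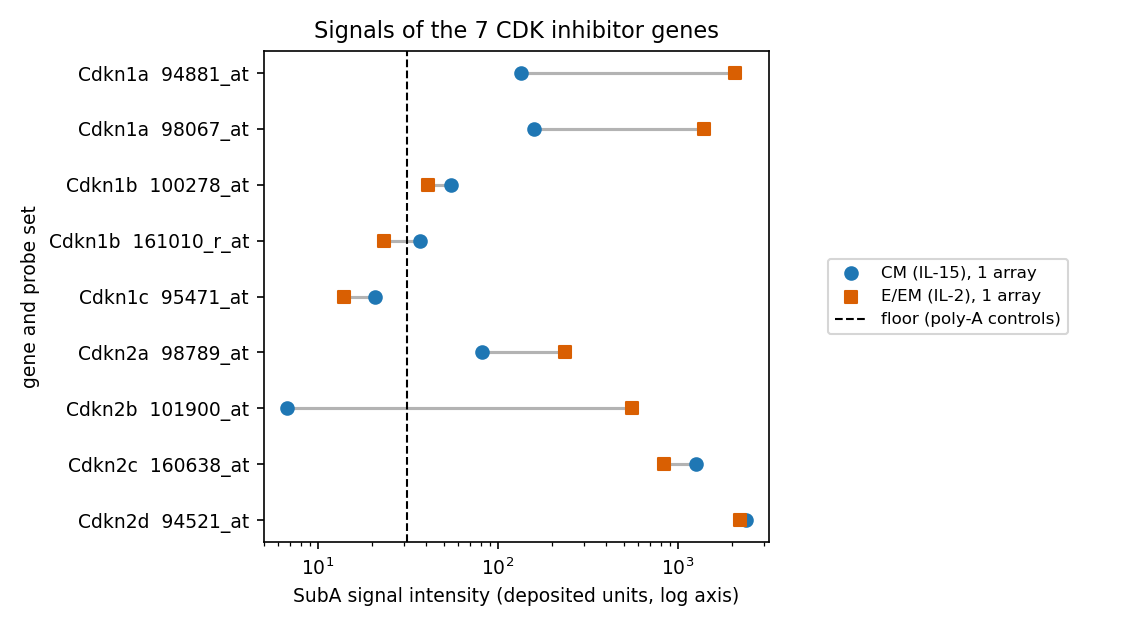
Signal intensity (log axis, deposited units) of each of the 9 inhibitor probe sets on the CM array (circles) and the E/EM array (squares) of SubA, with 1 array per point and the floor of 31.28 as a dashed line. Cdkn1a, Cdkn2a and Cdkn2b lie far to the right in E/EM, the points of Cdkn2c and Cdkn2d lie close together, and Cdkn1b and Cdkn1c lie near or under the floor.

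Cdkn1a encodes p21, which blocks CDK2 complexes and binds the replication clamp PCNA, and it is the best known target gene of the tumour suppressor p53. Its probe set 94881_at had a signal of 133.8 in CM and 2066 in E/EM cells. Its other probe set, 98067_at, had 157.9 in CM and 1394.9 in E/EM cells. Both probe sets were low in CM and high in E/EM, and even the lower CM signal was 4.28 times the floor. The differences came to 15.4-fold and 8.83-fold, log2 ratios of CM over E/EM of -3.95 and -3.14. The gene's mean was -3.55 ± 0.57 (SD over 2 probe sets on the same arrays, a technical spread), against a median SD of 0.32 over 4094 genes with at least 2 measured probe sets. By this mean Cdkn1a stood at rank 14 from the lowest of 10946 genes. Among 7926 measured SubA probe sets, its own had ranks 10 and 17 from the lowest ratio.

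RefSeq gives Cdkn1a a pair of transcript starts, and the 250 bases before each are shown because they differ in what a p53 or core promoter search finds. The window before the upstream start is chr17:29090729-29090978 (GRCm38.p6, plus strand, 54% G and C), and the window before the downstream start is chr17:29093519-29093768 (plus strand, 64.8%). Capitals mark matches to the motifs searched, here a p53 site, a TATA box (TATAA) and a GC box (GGGCGG).
Cdkn1a upstream start: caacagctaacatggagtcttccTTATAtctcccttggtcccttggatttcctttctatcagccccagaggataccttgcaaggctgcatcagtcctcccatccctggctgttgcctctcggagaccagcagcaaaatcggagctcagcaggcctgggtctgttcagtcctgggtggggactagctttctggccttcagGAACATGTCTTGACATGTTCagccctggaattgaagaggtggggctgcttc
Cdkn1a downstream start: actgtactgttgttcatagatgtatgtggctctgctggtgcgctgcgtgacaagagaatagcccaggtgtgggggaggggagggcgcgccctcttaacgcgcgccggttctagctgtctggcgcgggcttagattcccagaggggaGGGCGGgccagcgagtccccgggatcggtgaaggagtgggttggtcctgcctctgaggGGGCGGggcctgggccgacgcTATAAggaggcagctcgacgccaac
The p53 site was searched as a pair of adjacent p53 elements, 20 bases long, with both cores exact and at most 1 mismatch elsewhere. It matched from 51 to 32 bases before the upstream start with 1 mismatch, and the same search matched 15 of 32851 RefSeq windows (0.0457%). The window before the downstream start held GC boxes from 104 and from 46 bases before it and TATAA from 25 bases before it. A GC box was present in 32.7% of all windows and TATAA in 22.8%, on either strand. The upstream window also held TATAA, on the opposite strand, from 227 bases before its start. These are letters in the genome, and the array does not tell which start was used.

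The p53 pathway list gives the levels of other genes of that pathway, p53 targets among them. Of 18 genes listed, 15 were on the arrays, 14 had a ratio, 3 lay 2-fold or more below E/EM in CM and 0 lay as far above. Of all genes with a ratio, 5.61% lay as far below and 2.73% as far above. The list's count below was 4 with the brightest probe set, on SubA alone or with the floor halved or doubled. It was 2 without shared or relaxed probe sets. The list median was -0.54, with 11 genes below 0 and 3 above, against -0.0025 for all genes. Sesn2, a stress-induced regulator of growth signalling, had signals of 620 in CM and 3343.6 in E/EM and a log2 ratio of -2.43, from a probe set with a relaxed design. Ccng1, which encodes cyclin G1, had 481 and 1320.8, a log2 ratio of -1.46. Plk2, a polo-like kinase, had 121.7 and 314, a log2 ratio of -1.37. These genes, which include p53 targets, were named because they passed the 2-fold rule. They were low in CM and high in E/EM as Cdkn1a was, by smaller folds of 5.39, 2.75 and 2.58 against 11.7 for Cdkn1a. The part of p53 in these ratios was not tested. Mdm2 and Sesn1 were chosen once their values had been seen. Mdm2, the ubiquitin ligase for p53 and itself a target, had -0.75 ± 0.62 (SD, 2 probe sets), and Sesn1, a relative of Sesn2, had 0.71. No probe set carried the symbol Trp53, so the p53 gene itself has no value. Probe sets with the symbol Trp53-ps, a p53 pseudogene, had 362.8 and 210.3 in CM and 308.7 and 185.1 in E/EM. Whether they detect RNA of the p53 gene was not tested.

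Cdkn1b encodes p27, which holds resting T cells out of the cycle and is lost mainly through degradation of the protein. Its probe set 100278_at had a signal of 54.9 in CM and 40.8 in E/EM, a log2 ratio of 0.43. Its other probe set, 161010_r_at, whose suffix marks a relaxed design, had 36.7 in CM and 23.4 in E/EM, above the floor in CM alone. Both probe sets were dim, a little higher in CM, and the weaker measured signal was only 1.30 times the floor. With the floor doubled, Cdkn1b had no ratio. Among SubA probe sets whose weaker signal reached 2 times the floor, 3.41% were at least 2-fold lower and 1.92% higher in CM. Cdkn1c encodes p57, an imprinted inhibitor known from embryonic and stem cell tissues. Its 1 probe set had 20.7 in CM and 13.9 in E/EM, at or under the floor in both, so no ratio is given.

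Cdkn2b encodes p15, an inhibitor of CDK4 and CDK6 known as a target of TGF-beta signalling. Its probe set 101900_at had a signal of 6.7 in CM, under the floor, and 557 in E/EM, which was 17.8 times the floor. Set against the floor, Cdkn2b was at least 17.8-fold lower in CM. This was rank 3 of 990 genes bounded in that direction over all array types. The rank pools unlike floors, 31.28 on SubA, 88.12 on SubB and 194.34 on SubC. For a given signal, the low SubA floor gives the largest bound. The bound follows the floor, from at least 35.6-fold with the floor halved to at least 2.32-fold with a floor set at the 60th percentile of all SubA probe sets.

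Cdkn2a encodes 2 unrelated proteins from different first exons, p16INK4a, which inhibits CDK4 and CDK6, and p19ARF, which protects p53 by holding MDM2. Its probe set 98789_at had a signal of 81.4 in CM and 234 in E/EM. The CM signal was low but 2.60 times the floor, and the difference was 2.87-fold, a log2 ratio of -1.52. The gene stood at rank 195 from the lowest of 10946. The gene annotation does not say which of its transcripts the probe set detects, so the value is for the locus. A 3-fold rule left it out, and with the floor at the 60th percentile both of its signals were under the floor.

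Cdkn2a and Cdkn2b are direct neighbours among the protein-coding genes of mouse chromosome 4, so the bases before their starts are shown together. The windows lie on the minus strand of GRCm38.p6, at chr4:89311033-89311282 for Cdkn2b, chr4:89294620-89294869 for the upstream start of Cdkn2a and chr4:89282193-89282442 for its downstream start. Capitals mark a cyclic AMP response element (TGACGTCA) or a GC box (GGGCGG).
Cdkn2b: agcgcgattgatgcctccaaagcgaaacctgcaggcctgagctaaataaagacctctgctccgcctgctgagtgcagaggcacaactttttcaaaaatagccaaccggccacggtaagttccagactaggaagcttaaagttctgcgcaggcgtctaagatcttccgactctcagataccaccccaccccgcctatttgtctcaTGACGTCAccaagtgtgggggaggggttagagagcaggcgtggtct
Cdkn2a upstream start: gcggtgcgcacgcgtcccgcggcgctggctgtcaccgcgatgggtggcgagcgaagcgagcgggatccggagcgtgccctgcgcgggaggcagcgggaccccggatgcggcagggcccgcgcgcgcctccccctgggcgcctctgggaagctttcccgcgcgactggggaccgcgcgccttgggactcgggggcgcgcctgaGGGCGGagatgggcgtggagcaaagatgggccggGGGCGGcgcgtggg
Cdkn2a downstream start: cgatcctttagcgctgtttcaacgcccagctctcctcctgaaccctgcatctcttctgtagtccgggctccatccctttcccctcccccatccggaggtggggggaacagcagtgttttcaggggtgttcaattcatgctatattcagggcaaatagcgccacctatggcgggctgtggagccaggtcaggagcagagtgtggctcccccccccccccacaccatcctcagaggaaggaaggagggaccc
The window of Cdkn2b held TGACGTCA from 46 bases before the start, a motif present in 1.55% of all windows. That of the upstream Cdkn2a start, 78.4% G and C, held GC boxes from 48 and from 14 bases before it. In the window of the downstream start, 60% G and C, none of the motifs matched. The letters also searched in all member windows, on both strands, were CACGTG (in 6.02% of windows), TTCNNNGAA (7.02%), TGTTTAC (3.17%) and TGANTCA (6.75%), and they matched in no window of a member. Windows of the inhibitors that were not lower in CM are not printed, and held 1 GC box for Cdkn1b, 3 for Cdkn2d and 3 before the upstream start of Cdkn2c. RefSeq windows were found for 6 of the 7 genes, all but Cdkn1c.

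The gene on the other side of Cdkn2a, Mtap, which salvages methylthioadenosine, had a SubB signal of 2467.6 in CM and 2552.2 in E/EM, a log2 ratio of -0.05. Of the neighbours of Cdkn1a, Rab44 had -0.38, from 428.8 and 557 on SubC. The probe sets of Srsf3, a splicing factor on the other side of Cdkn1a, disagreed, with 1.02 at signals of 71 and 35 and -0.15 at 1949.8 and 2168.9. Dmrta1, on the other side of Cdkn2b, had no probe set of its own. None of these measured neighbours was at least 2-fold lower in CM. As only 5.61% of all genes with a ratio were, nothing is read from so few neighbours.

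Cdkn2c encodes p18, which restrains the division of lymphocytes. Its probe set 160638_at had a signal of 1258.5 in CM and 832.8 in E/EM, a log2 ratio of 0.60. Cdkn2d encodes p19INK4d, a protein distinct from p19ARF. Its probe set 94521_at had 2390.6 in CM and 2201.3 in E/EM, a log2 ratio of 0.12. These INK4 genes gave strong signals in both kinds of cells, at least 26.6 times the floor. The Cdkn2d ratio was smaller than the median SD of 0.32 between probe sets of a gene. By ratio, Cdkn2c stood at rank 1065 from the highest and Cdkn2d at rank 4221 of 10946 genes.

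**Figure D2:**
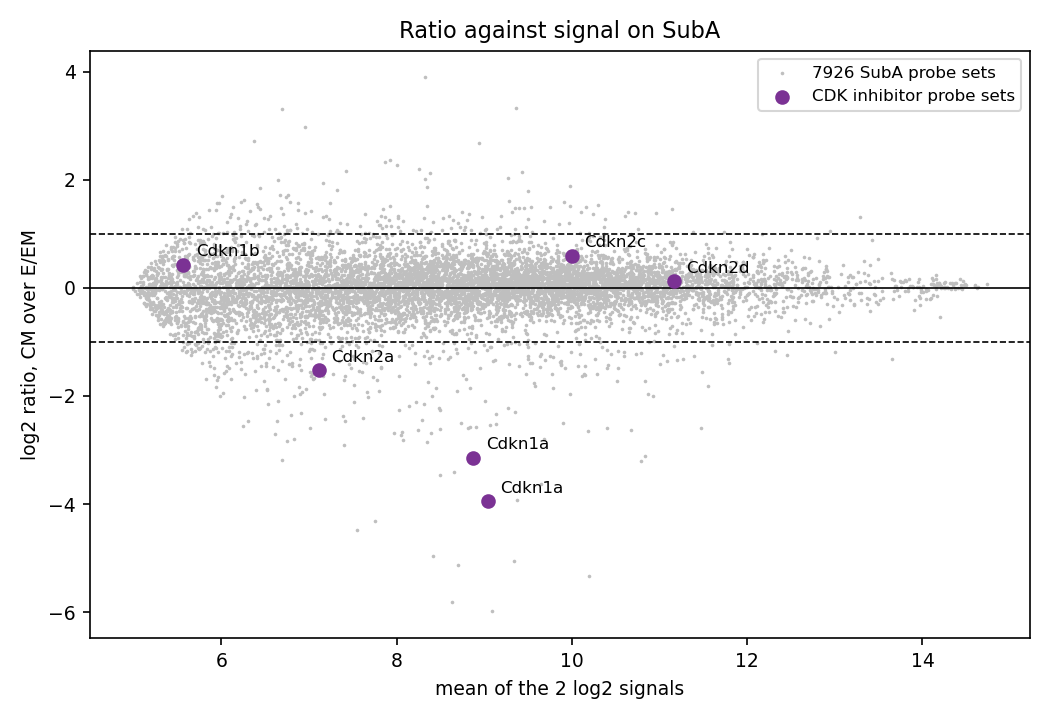
Log2 ratio, CM over E/EM, against the mean of both log2 signals for the 7926 SubA probe sets above the floor on both arrays (grey), with the 6 inhibitor probe sets among them in purple and dashed lines at 2-fold. Both Cdkn1a points, at -3.95 and -3.14, lie far under the cloud, Cdkn2a at -1.52 lies under the lower line, and Cdkn1b, Cdkn2c and Cdkn2d lie inside the lines. Cdkn2b and Cdkn1c have no ratio and are not drawn.

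The genes nearest to an inhibitor in ratio were sought among the 8042 genes with no measured signal under 2 times the floor. This likeness is over 2 kinds of cells only. On either side of Cdkn1a, at rank 8 of that set, stood Hemk1 (-3.78) and Emp1 (-3.62) with lower ratios and Prf1 (-3.47), which encodes perforin, and Ccn3 (-3.40) with higher ones. Around Cdkn2a stood Scd1 at -1.53 ± 0.14, Itgav at -1.52 ± 0.29, Cd93 at -1.51 ± 0.18 (SD, 2 probe sets each) and Nlrp3 at -1.52. The ratio of Cdkn2a lay where genes are dense, so its neighbours differed from it by less than 0.01.

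By gene mean, the CDKs and their activating kinase differed little between CM and E/EM. Of 7 genes for CDK catalytic subunits and the CDK-activating kinase, all had a ratio, 0 were past 2-fold and the median was 0.0059. For this and the lists below, the shares of all genes past 2-fold were 5.61% lower and 2.73% higher in CM. Cdk7, singled out after its value was seen, had -0.08 ± 0.92 (SD) from 2 probe sets on either side of 0. Cdk6, a direct partner of INK4 proteins, had the largest ratio in size, -0.57 ± 0.13 (SD, 2 probe sets), with its brighter probe set at 6744.8 in CM and 9412.6 in E/EM. Ccnh, the cyclin of the activating kinase, had 0.40 ± 0.84 (SD, 2 probe sets) with probe sets on either side of 0, and Cdk1, the mitotic kinase, had 0.15. Among cyclins, 8 of 9 listed genes were on the arrays, 7 had a ratio, 0 passed 2-fold and the median was 0.09. Ccna2, the cyclin of S phase, had 0.60, Ccnb2, a mitotic cyclin, had 0.47 and Ccnd2, a D-type cyclin of T cells, had -0.52 with signals of 1312.2 in CM and 1879.2 in E/EM.

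The retinoblastoma and E2F genes, whose products act below the CDKs, had 13 of 13 genes measured, 0 past 2-fold and a median of -0.06. E2f7, a repressor of E2F targets, had -0.67, E2f5 had 0.48 and Rbl1, which encodes p107, had 0.43. Of the genes for kinases and phosphatases that set the inhibitory phosphate on CDKs, 4 of 5 listed genes were measured, with 0 past 2-fold and a median of 0.27. Cdc25b, a phosphatase that activates CDKs, had the highest ratio there, 0.95, with signals of 4219.1 in CM and 2188.8 in E/EM on SubB. Wee1, the kinase that opposes it, had 0.28, and Cdc25c had 0.25 ± 0.27 (SD, 2 probe sets).

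S phase and proliferation genes were also close to equal. Of 20 listed genes, 19 had a ratio, 0 passed 2-fold and the median was 0.08, with 13 above 0 and 6 below. The largest in size were Mcm5, a replicative helicase subunit, at -0.45 ± 0.95 (SD, 2 probe sets that disagreed in sign), the mitotic kinase Aurka at -0.44, and Birc5, which encodes survivin, at 0.41. The ligase subunits and cofactors that degrade CIP/KIP proteins and cyclin E had 9 of 12 listed names on the arrays, 0 past 2-fold and a median of 0.17. Skp1, a core ligase subunit, had 0.58, Dtl, which targets p21 in S phase, had 0.35 ± 0.50 (SD, 3 probe sets), and Cks1b, a cofactor for p27 degradation, had 0.25.

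Few regulators of inhibitor genes had ratios past 2-fold. As 5.61% of all genes were that far lower and 2.73% that far higher in CM, nothing is read from these counts. Of 10 FOXO and TGF-beta pathway genes, all had a ratio, 1 was past 2-fold in the direction of CM and 0 in that of E/EM, and the median was 0.13. That gene was Smad3, a transducer of TGF-beta signals, at 1.01 ± 0.36 (SD, 2 probe sets), and on SubA alone it had 0.75. Of 10 genes for MYC, MIZ1 and ID factors, 9 had a ratio, 1 was past 2-fold in the direction of E/EM and 0 in that of CM, and the median was -0.03. That gene was Mycn, a relative of the MYC gene, with 165.6 in CM and 774.4 in E/EM and a log2 ratio of -2.23. Myc itself, singled out after its value was seen, had 2080.2 and 2120.5, a log2 ratio of -0.03. The Polycomb group, whose complexes are known for silencing the Cdkn2a and Cdkn2b locus, had 12 of 15 listed genes measured, 0 past 2-fold and a median of 0.03. Rnf2 had 0.74 ± 0.47 (SD, 3 probe sets), Ring1 0.61 and Phc1 0.48, all subunits of Polycomb complexes. Cbx7, a subunit known to repress the locus, was at least 2.77-fold higher in CM when set against the floor. That bound came from 1 of its 2 probe sets, with 244.4 in CM and 40.1 in E/EM on SubB, and it moves with the floor. Bmi1, another subunit known to repress the locus, was singled out after its value was seen and had -0.06.

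**Figure D3:**
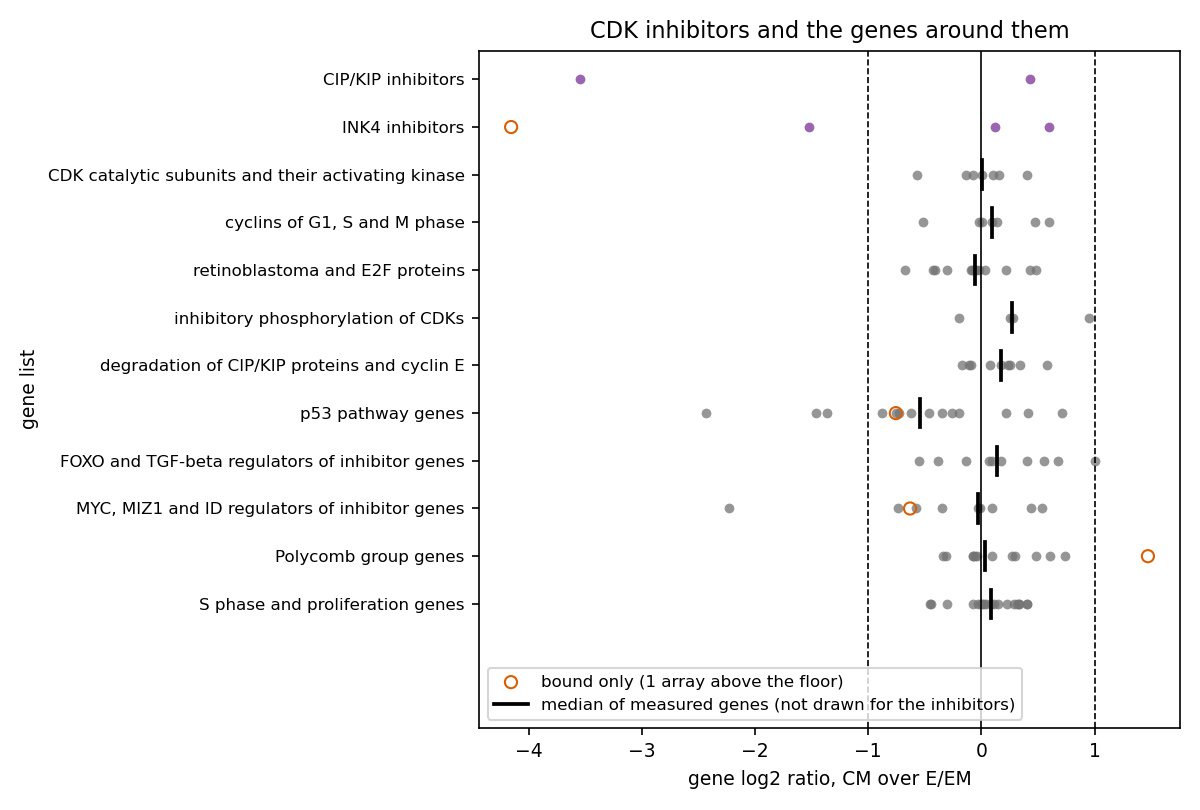
Gene log2 ratios of CM over E/EM for the CDK inhibitors (purple) and 10 lists of genes around them (grey), with list medians as black bars, dashed lines at 2-fold and open circles for genes with a bound only. Cdkn1a at -3.55 and the Cdkn2b bound lie outside the range of all 10 lists, and the p53 pathway list, with a median of -0.54, holds 3 of the 4 listed genes that were at least 2-fold lower.

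Markers of other cells that the starting suspension holds were mostly low but not all absent. The B cell marker Ighm was strong, at 5306.6 in CM and 3802.4 in E/EM. For each list the brightest probe set of a gene was used and the signals were summed. Of 11 macrophage, monocyte and neutrophil markers, 5 were above the floor in CM and 4 in E/EM, with sums of 658.3 and 712.2, and Lyz2, Itgam, Adgre1, S100a8, S100a9 and Mpo were under it in both. The counts differ through Elane, whose brightest probe set, on SubC, was above its floor in CM alone. A SubA probe set of Elane was above the floor on both arrays. Of 7 dendritic cell and antigen presentation markers, 6 and 7 were above it, with sums of 1044.8 and 1444.8. Of 7 B cell markers on the arrays, 7 and 6 were above it, with sums of 5940.3 and 4370.7, most of which was Ighm. Of 6 stromal and endothelial markers, 4 and 5 were above it, with sums of 706.7 and 878.7. Of the helper T cell markers, Cd4 had 131.7 in CM and 49.3 in E/EM, and Zbtb7b had 63.3, under its floor, and 857.9. The natural killer cell marker Ncr1, the only one of its list on the arrays, was under the floor in both. The macrophage, dendritic cell and stromal sums were higher in E/EM, as Cdkn1a, Cdkn2a and Cdkn2b were, by at most 1.38-fold. The helper T cell sum, 195 in CM and 907.2 in E/EM, was 4.65-fold higher in E/EM, mostly through Zbtb7b. The B cell sum was lower in E/EM, mostly through the bright Ighm probe set. Such sums add unlike probe sets, and single markers could differ by more than their list's sum. H2-Ab1 and H2-Eb1, genes of MHC class II, had log2 ratios of -1.29 and -1.23, and the macrophage marker Cd68 had -1.16, beside -1.52 for Cdkn2a. The dendritic cell marker Itgax had 1.60 and Cd4 had 1.42, the opposite direction. H2-Aa, another gene of MHC class II, also had the opposite direction, at 0.34 on SubC. Zbtb7b, listed with Cd4, had no ratio because its CM signal of 63.3 was under its floor. With 857.9 in E/EM, it was lower in CM, as Cdkn1a, Cdkn2a and Cdkn2b were. The part of such cells in the inhibitor ratios was not tested.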

How the data were processed

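Total RNA of both kinds of cells was hybridised to 6 arrays, and samples were grouped by their titles. The authors deposited 1 table of linear probe set intensities per array type. Their software, detection calls and scaling are not given in the sources used, and they were used as deposited, since the trimmed means (without the lowest and highest 2%) of a table's arrays were nearly equal. Probe sets were named from GEO's platform annotation, and control probe sets named no gene.

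Log2 ratios of CM over E/EM were taken for probe sets above their table's floor on both arrays, and a gene's value is the mean over its probe sets. With 1 array above the floor a gene has a bound, the signal over the floor. Floors were 31.28, 88.12 and 194.34 on SubA, SubB and SubC. Genes were counted by a 2-fold rule with no test, and the number of arrays limits all precision. The members, lists, motifs and settings were chosen with earlier results of these data known. Named genes were all members, every list gene past 2-fold or otherwise the 3 largest in size, and 2 genes on each side of a member in ratio. Motifs were searched in the 250 bases before each RefSeq start. The calculations (Python 3.11.15, numpy 2.4.6, pandas 2.3.3) were tested on simulated data. The alternatives were quantile normalization, centring, other floors, other choices of probe sets, SubA alone and a 3-fold rule.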

Additional observations from a re-analysis of the deposited data

How the results depend on the processing

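The log2 ratios of Cdkn1a, Cdkn2a, Cdkn2c, Cdkn2d and Cdkn1b moved by less than their probe set spread (for genes with 1 probe set, the median SD of 0.32) in every alternative that gave them a value. With the floor at the 60th percentile, Cdkn1a was at least 8.61-fold lower in CM and Cdkn2a and Cdkn1b had no value, and with the floor doubled Cdkn1b had none. The Cdkn2b bound was at least 35.6-fold with the floor halved, 8.90-fold with it doubled and 2.32-fold at the 60th percentile, which follows from how the bound is made. The count of inhibitors past the rule was 2 rather than 3 at that floor and under a 3-fold rule. Over all genes, 614 were lower and 299 higher. The counts were 948 and 480 with the floor halved, 270 and 182 at the 60th percentile, 256 and 123 on SubA alone and 169 and 61 under a 3-fold rule, and 385 were lower with the floor doubled. These follow from how many genes were measured or how strict the rule was. Of the pathway list counts and medians, 281 values stayed within 1.5 times the count or within the probe set spread and 6 did not. These include the lists of the inhibitors themselves. Many counts were 0 in every setting and so were taken as unchanged, and settings that gave no value were left out. The tally therefore says little about stability. At the 60th percentile Mycn and Plk2 had no ratio, and Sesn2 had none without relaxed probe sets. No paired analysis was possible because each kind of cell had 1 array per array type. No replicate could be left out for the same reason.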

Other observations

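Other genes with similar names are not CDK inhibitors of the CIP/KIP or INK4 families and were chosen once their values had been seen. Cdkn3, a phosphatase that acts on CDKs, had a SubA signal of 872 in CM and 477.1 in E/EM, a log2 ratio of 0.87, so it was higher in CM by a little under the 2-fold rule. Cdkn2aip, whose product binds p19ARF, had SubB ratios of -0.59, -0.35 and 0.16, and its probe sets did not share a direction. Cdkn2aipnl had 0.42, from 725.9 and 542.3 on SubA.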
